A study of Mus musculus with 60 samples.

Results

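Fresh mouse hepatocytes were compared with the same kind of cell after 14 days in a medium containing IL6, the first culture from which IL6-iHPCs (IL6-induced hepatic progenitor cells) are later passaged. All cells came from wild-type C57BL/6 mice (C57BL/6J in the methods of the study), and hepatocytes were isolated by collagenase perfusion of the liver. The culture, IL6-iHPCs-D14 at P0 (before any passage), was grown in DMEM/F12 with IL6, EGF, HGF, dexamethasone and a supplement of insulin, transferrin and selenium, whereas the hepatocytes had not been cultured. No culture grown for 14 days without IL6 was part of the comparison, so IL6 cannot be told apart from the other factors, from attachment to plastic or from time in culture. Each group held 3 samples, which the study's legend describes as technical repeats, so the p-values below cover the spread between such samples and not that between mice. The members are the genes with at least 1 FPKM (mapped fragments scaled by transcript length and by library depth) in at least 3 of these 6 samples, 11298 of the 19355 genes listed. A second culture, IL6-iHPCs-D3 at P0, with 3 samples from day 3 in the same medium, was used as the nearest other group.

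Hepatocytes fill the blood with albumin, apolipoproteins, clotting factors and complement, turn ammonia into urea, make glucose and bile acids, and clear foreign compounds with cytochromes P450. These functions are held by a network of transcription factors around Hnf4a and Cebpa, and they fade when hepatocytes are plated. IL6 acts through its receptor Il6ra and the shared chain Il6st on Stat3, the route by which liver switches to acute phase proteins, while EGF and HGF act through Egfr and Met. Cells of bile ducts, and hepatocytes that move towards a progenitor state, express Sox9, Krt19 and Spp1, and fetal liver expresses Afp and Igf2.

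Depth was recovered from the steps between the values, and hepatocyte samples held 56.3 M to 77.4 M reads assigned to genes (M for mega), those at D14 53.4 M to 55.5 M. Values of a few very abundant genes filled the hepatocyte samples, where 67 to 74 genes held 50% of the summed FPKM, against 425 to 476 genes at D14. FPKM are shares of a library, and the median log2 difference over all genes tested was 1.14 (D14 minus hepatocytes, on log2(FPKM + 1)). What part the abundant genes had in that shift was not tested. It was 0.12 after quantile normalization and 0.06 after median-of-ratios scaling, and changes are therefore given beside these where the scaling decides. Replicates lay close together, with a median SD per gene of 0.0902 in hepatocytes and 0.0633 at D14 on the log2 scale. In bulk RNA, fewer cells of a type and less RNA per cell cannot be told apart.

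The culture differed from fresh hepatocytes in most of the genes measured. Of the genes tested 7710 changed (68.2%), by limma with a shift of 2-fold or more and a threshold of 0.05 on the adjusted p, and 6117 of them rose at D14 (54.1% of those tested) while 1593 fell (14.1%). After quantile normalization the same rule gave 2988 higher (26.4%) and 2664 lower (23.6%). Every gene past 2-fold had an adjusted p of 0.012 or less, so the fold decided each call, and an exact permutation test of 3 samples against 3 could not go below p = 0.1. The 2 groups did not overlap at all in 10696 genes (94.7%). Changes of at least 16-fold were seen in 376 genes that rose and 309 that fell.

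In the deposited values the share of genes called higher was lower in bands of higher mean level. Among 5871 genes with a mean under 10 FPKM over the 6 samples, 3729 were higher at D14 and 423 lower. Of 4754 genes between 10 and 100 FPKM, 2264 were higher and 811 lower. Among 621 genes between 100 and 1000 FPKM, 116 were higher and 323 lower, and of 52 genes above 1000 FPKM, 8 were higher and 36 lower. The median log2 differences of these 4 bands were 1.33, 0.90, -1.12 and -3.17, and after quantile normalization 0.06, 0.28, -0.36 and -1.997, so the rise of low genes depended on the scaling. In all 3 hepatocyte samples 2572 genes lay under 1 FPKM that were at or above it in all 3 samples at D14, and 550 of these reached 10 FPKM in each. In the other direction the counts were 415 and 163 genes. These counts hold for the deposited values and were not repeated under another scaling.

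**Figure D1:**
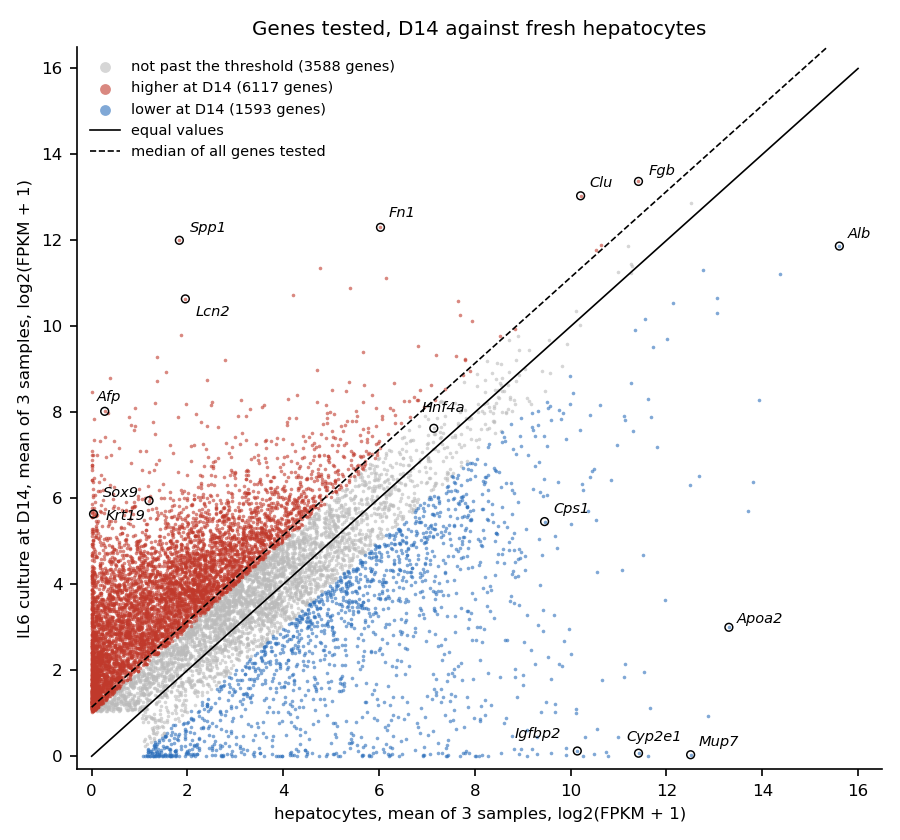
Mean log2(FPKM + 1) of the 3 hepatocyte samples (x axis) against that of the 3 samples at D14 (y axis) for the 11298 genes tested, with a solid line of equal values and a dashed line at the median difference of 1.14. The 6117 genes higher at D14 (red) crowd the low end of the hepatocyte axis, and the 1593 lower ones (blue) reach to its high end.

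The most abundant messages partly changed hands. In hepatocytes Alb (serum albumin) alone made up 7.82 to 8.88% of the summed FPKM, followed by Apoe, Apoa1 and Serpina3k, and at D14 its share was 0.863 to 1.08%. Of the 50 most abundant genes of hepatocytes, 42 were lower at D14 and 2 higher. Of the 50 most abundant at D14, 25 were higher at D14, and 18 were also among the 50 of hepatocytes. At D14 the list was led by Fgb, the beta chain of fibrinogen, at a mean of 10604 FPKM, and by Clu, a secreted chaperone, at 8409 FPKM against 1182 FPKM in hepatocytes. Trf, the iron carrier transferrin, stood at 7442 against 5876 FPKM, under 2-fold, with a log2 difference of 1.46 after quantile normalization and -1.03 after median-of-ratios scaling. Fn1 and Spp1 came next with 5056 and 4102 FPKM. Clu, Trf and Apoe were chosen for naming after their values were seen.

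The largest rises were those of Spp1 and Lcn2. Spp1 (osteopontin, a secreted matrix protein of bile duct cells) was at 2.42, 2.28 and 2.97 FPKM in the 3 hepatocyte samples and at 3936, 4371 and 4001 FPKM at D14. Its log2 change was 10.18 (SE 0.08, adjusted p = 8.69e-14). Lcn2, an iron-binding acute phase protein, went from 2.97, 3.18 and 2.49 FPKM to 1513, 1664 and 1605 FPKM, a log2 change of 8.69. Both genes were hardly present in every hepatocyte sample and among the abundant messages in every sample at D14. Fbln2, a matrix glycoprotein, was listed at 0 in the 3 hepatocyte samples and at 359, 358 and 338 FPKM at D14. Its difference exceeded that of Lcn2 after quantile normalization (9.03 against 8.52) and after median-of-ratios scaling (7.77 against 7.45). The membrane protein Cd63 (log2 change 8.44), the calcium-binding S100a11 (7.95), the annexins Anxa2 (7.91) and Anxa3 (7.66), the IGF carrier Igfbp3 (7.79), the fetal serum protein Afp (7.75), the intermediate filament Vim (7.40), the kinase Sgk1 (7.38) and the transcription factor Sox4 (7.31) completed the 12 largest rises.

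The largest falls were those of secreted and metabolic genes of adult liver. Mup7 and Mup3, members of the major urinary proteins, fell from 5182, 5708 and 6542 FPKM to 0, 0 and 0.0711 FPKM and from 7229, 7215 and 8050 FPKM to 0.804, 0.557 and 1.41 FPKM. Mup genes are near-identical copies, and counting can share their reads out in different ways. Cyp2e1, the pericentral enzyme that oxidises ethanol, was at 2569, 2824 and 2807 FPKM in hepatocytes and at 0.0645, 0.0215 and 0.0622 FPKM at D14. Hpd (tyrosine breakdown), Gnmt (methyl group balance), Adh1 (alcohol dehydrogenase), Car3, Apoa2, Ces3a and Igfbp2 had means of 1126 FPKM or more in hepatocytes, and at D14 no mean of theirs exceeded 6.99 FPKM.

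Markers of other liver cells were examined, since perfused preparations can carry such cells, although the hepatocytes had been purified on a Percoll gradient at low speed. For Kupffer cells and macrophages, 10 of 16 markers were tested, 9 fell and 1 rose. Of the 10, 8 had passed the filter only through hepatocytes and 1 only through D14, so the filter largely set these directions. Over all 16 the median log2 difference was -1.23. The summed level of the list went from 35.1 to 41.9 FPKM in hepatocytes to 4.98 to 6.46 FPKM at D14. Clec4f, a lectin of Kupffer cells, was listed at 0 in all 3 samples at D14. Cd68 was the marker that rose (log2 change 1.19), and after quantile normalization its difference was -0.22. For sinusoidal endothelial cells the sum went from 39.7 to 43.5 FPKM down to 5.52 to 7.15 FPKM, and had been 22.9 to 25.4 FPKM at D3. Of 10 tested markers 7 were lower, but 8 of the 10 passed the filter only through hepatocytes. Over all 16 the median was -0.95. For lymphocytes and neutrophils the sum went from 18.7 to 20.5 FPKM down to 0.343 to 1.26 FPKM. For red blood cells it went from 107 to 124 FPKM down to 0.22 to 0.373 FPKM. All 6 and all 4 tested markers were lower, but each had passed the filter only through hepatocytes. The filter thus largely set their direction. Over all members in the table, tested or not, the medians were -0.78 and -1.29.

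Stellate cell and fibroblast markers reached the filter in 3 of 16 cases, and their sum went from 3.69 to 3.92 FPKM in hepatocytes to 54.6 to 58.4 FPKM at D14. Of the 3 tested, Dcn and Ecm1 rose and Thy1 fell, from 1.59 to 0.0314 FPKM. The filter set these directions, as 2 of the 3 passed it only through D14 and 1 only through hepatocytes. Over all 16 the median was 0.10. Dcn (decorin) accounted for 25.3, 24.3 and 24.9 FPKM of the sum at D14 and Ecm1 for 30.5, 28.5 and 29.0 FPKM. Col1a1, Pdgfrb and Lrat, which define these cells, averaged 0.361, 0.0818 and 0.0403 FPKM at D14. Among 9 mesothelial markers, Msln (mesothelin) was listed at 0 in hepatocytes and at 110, 86.3 and 101 FPKM at D14, and Upk1b at 1.41, 1.44 and 1.38 FPKM, while Wt1 averaged 0.016 and Upk3b 0.118 FPKM. What part such cells had in the genes that rose was not tested.

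**Figure D2:**
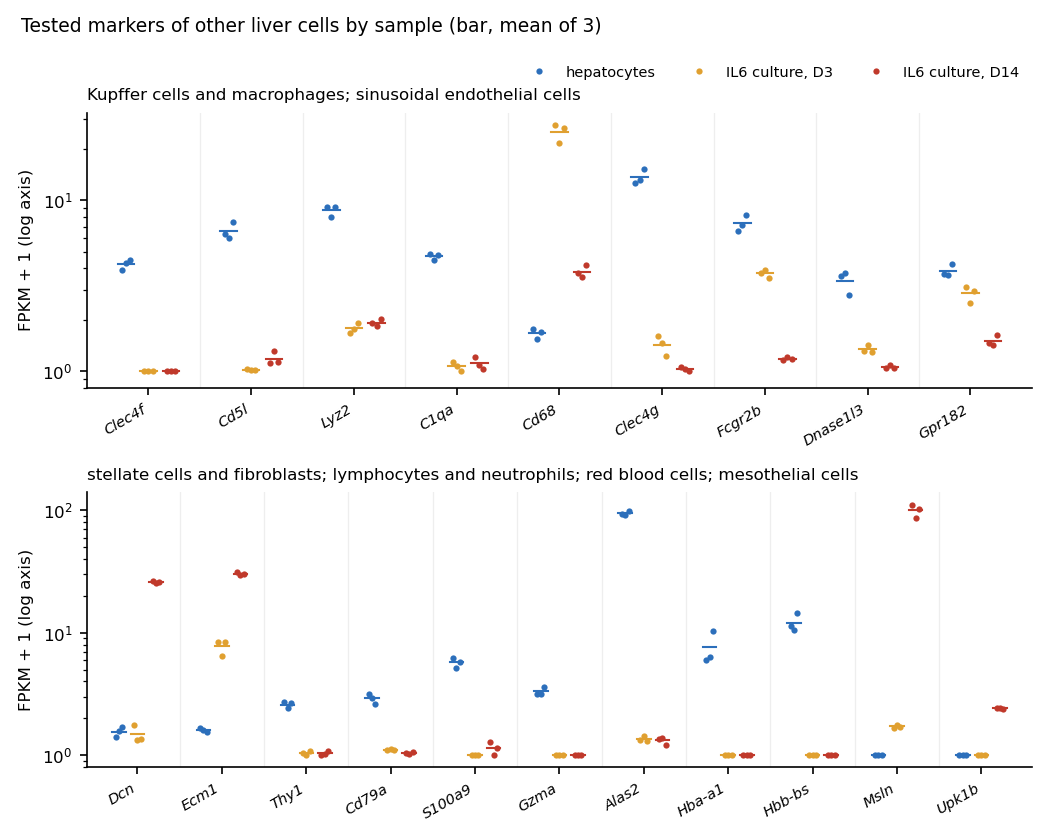
FPKM + 1 on a log axis for tested markers of other liver cells, one point per sample, in hepatocytes (blue), IL6 culture at D3 (orange) and at D14 (red), with bars at the mean of 3. At D14 the markers of Kupffer, endothelial, blood and red blood cells lie below their hepatocyte level, apart from Cd68, while at D3 Fcgr2b and Gpr182 are still at 2.74 and 1.85 FPKM, and Dcn, Ecm1 and Msln stand up at D14.

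Lists of genes were then read side by side, each against the 54.1% of all genes higher and 14.1% lower at D14. Among tested members, the lists of liver functions had medians far below the 1.14 of all genes, and those of cytoskeleton and progenitor genes lay above it. Lists are described by counts and medians, without a test of the list. The filter bears on these counts, because a gene under 1 FPKM in every hepatocyte sample could be tested only through its level at D14. This held for 2572 of all genes tested, for 29 of 36 mitosis genes, 19 of 24 biliary and progenitor markers, 20 of 30 matrix genes, 15 of 25 YAP targets, 13 of 23 genes of EGF and HGF signaling and 7 of 12 Notch and Wnt regulators. In the other direction it held for 17 of 43 cytochromes P450 and 9 of 20 male-biased genes. Over all listed members, filtered or not, the medians were 1.59 for mitosis, 2.36 for biliary markers, 1.599 for matrix, 0.47 for Notch and Wnt and -3.13 for cytochromes P450, against 0.19 for all genes listed.

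**Figure D3:**
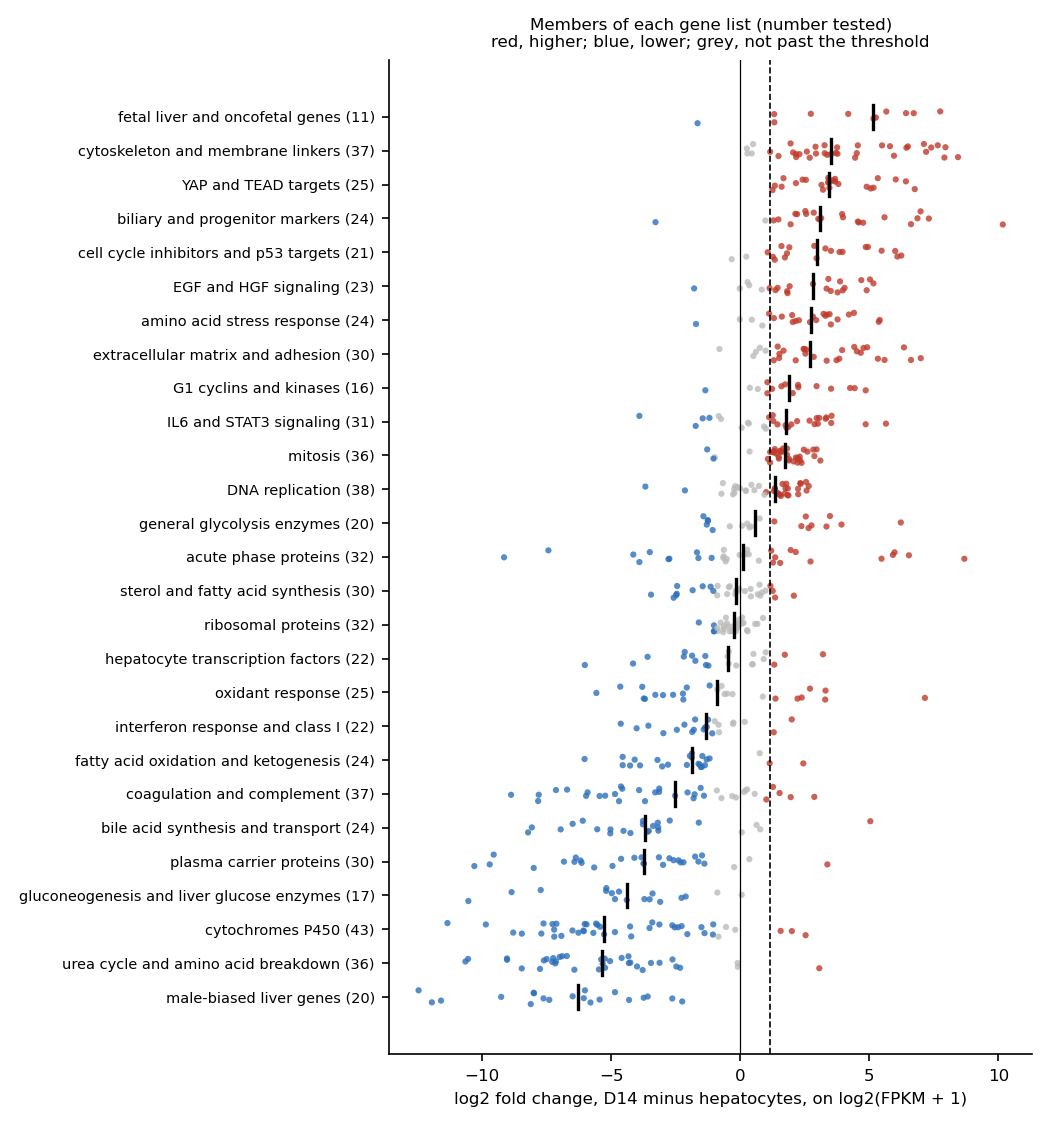
Log2 fold change (x axis, D14 minus hepatocytes, on log2(FPKM + 1)) of every tested member of 27 gene lists, red for higher, blue for lower and grey for genes not past the threshold, with a black bar at the list's median, a solid line at 0 and a dashed line at 1.14, the median of all genes. Medians run from -6.28 for male-biased liver genes to 5.16 for fetal liver and oncofetal genes.

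Of 22 transcription factors of hepatocytes, 10 fell and 3 rose. Hnf4a, the factor on which most liver genes depend, was at 134, 139 and 147 FPKM in hepatocytes and at 193, 204 and 193 FPKM at D14. The 2 groups did not overlap and the log2 difference was 0.49 (SE 0.06), under the 2-fold limit, with 1.24 after quantile normalization and -0.89 after median-of-ratios scaling, so no direction can be given. Cebpa, which holds adult hepatocytes in a resting, metabolic state, fell from 304, 249 and 268 FPKM to 23.17, 23.28 and 18.96 FPKM. The nuclear receptors behind bile acid and drug responses fell as well, by 1.35 on the log2 scale for Nr1h4 (FXR), by 4.15 for Nr1i3 (CAR) and by 6.02 for Nr0b2 (SHP), a target of FXR that was at 74.2 FPKM in hepatocytes and at 0.153 FPKM at D14. Prox1, a factor of early liver development, rose from a mean of 3.02 to 35.8 FPKM. Foxa2, which opens liver chromatin, and Zhx2, which represses Afp after birth, were called higher (log2 changes 1.32 and 1.73), but other scalings took the difference to -0.02 for Foxa2 and 0.42 for Zhx2.

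Plasma proteins mostly fell. Of 30 carrier proteins 27 were lower and 1 higher, with a median of -3.74. Alb was at 47356, 48923 and 53749 FPKM in hepatocytes and at 3828, 4141 and 3244 FPKM at D14, 13.4-fold lower (log2 change -3.75, SE 0.11). At D14 it was among the 10 most abundant genes. Apoa1, the main protein of HDL, fell from a mean of 15599 to 309 FPKM, and Apoa2 from 10109 to 6.99 FPKM. Ttr, the thyroxine carrier, and Apoc3, an inhibitor of triglyceride clearance, fell to 91.2 and 2.91 FPKM from 6518 and 2941 FPKM. Apob, the structural protein of VLDL, was the exception, at 29.1, 54.2 and 37.8 FPKM in hepatocytes and at 425, 390 and 431 FPKM at D14.

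Within coagulation and complement, 24 of 37 tested genes fell and 5 rose, with a median of -2.52. Serpinc1 (antithrombin) fell from 1606 to 2.44 FPKM, F2 (prothrombin) from 1210 to 79.1 FPKM, and C8b, a part of the membrane attack complex, from 389 to 0.714 FPKM (means). C3, the central complement protein, was at 1963, 2242 and 1915 FPKM against 2392, 2586 and 2394 FPKM at D14, a difference under 2-fold that became 1.53 on the log2 scale after quantile normalization and -1.11 after median-of-ratios scaling. Pros1, a cofactor that limits clotting, rose from 10.3 to 81.7 FPKM. Fibrinogen moved against the list, with Fgb at 2653, 2696 and 2846 FPKM in hepatocytes and at 10168, 11314 and 10332 FPKM at D14 (log2 change 1.96). After median-of-ratios scaling the difference of Fgb was 0.57, so its call rested on the scaling. The summed level of the list was 20651 to 21241 FPKM in hepatocytes and 21505 to 23377 FPKM at D14. These sums are not like shares, as all genes summed to 587145 to 605850 FPKM in hepatocytes and to 375780 to 385138 FPKM at D14.

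Cytochromes P450 were among the lists with the lowest medians. Of 43 tested, 37 fell and 3 rose, the median was -5.28, and the summed FPKM of the family went from 11709.5 to 12442 down to 219.5 to 221. Cyp1a2, an enzyme of the pericentral zone, went from 298, 320 and 273 FPKM to 1.18, 1.00 and 0.619 FPKM. Cyp3a11, which metabolises many drugs, averaged 818 FPKM in hepatocytes and 1.32 FPKM at D14, and Cyp2c29 averaged 637 and 7.30 FPKM. Cyp2c and Cyp3a genes lie among close copies that can share reads. Those that rose were Cyp4f16, Cyp1a1 and Cyp4b1, at 10.6, 3.31 and 8.06 FPKM at D14. The calls of the last 2 were lost in a scaling, with log2 differences of 0.71 and 0.18 after quantile normalization.

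Bile acid genes fell in 20 of 24 cases and rose in 1. Cyp7a1, the rate-limiting enzyme of bile acid synthesis, was at 11.8, 13.4 and 12.8 FPKM in hepatocytes and at 0.258, 0.15 and 0.104 FPKM at D14. The transporters Slc10a1 (NTCP, uptake from blood) and Abcb11 (BSEP, export into bile) fell from 279 and 87.2 FPKM to 1.25 and 0.28 FPKM. Abcc4, which exports bile acids back into blood, rose from 0.0497, 0.0556 and 0.0997 FPKM to 34.4, 31.5 and 36.9 FPKM.

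Urea cycle and amino acid breakdown fell almost as a block, with 33 of 36 genes lower, 1 higher and a median of -5.36. The urea cycle enzymes Cps1 and Otc went from means of 701 and 150 FPKM to 43.0 and 0.0524 FPKM. At D14 Cps1 was 16.3-fold lower in mean FPKM and Otc 2866-fold. Fah, the last enzyme of tyrosine breakdown, fell from 370, 380 and 322 FPKM to 38.0, 43.4 and 38.6 FPKM, 8.94-fold, whereas Hpd, earlier in the same pathway, fell from 1715 to 0.0677 FPKM. Glul (glutamine synthetase), which binds ammonia in the last hepatocytes before the central vein, rose from 13.4, 14.5 and 13.1 FPKM to 117, 129 and 120 FPKM.

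Genes of glucose production fell, 15 of 17 in the list with a median of -4.40, and none rose. Pck1, which commits to gluconeogenesis, went from 644, 665 and 578 FPKM to 0.558, 0.272 and 0.248 FPKM. G6pc, the last step of glucose release, was at 4.17 against 162 FPKM (means). Pklr, the liver pyruvate kinase, was at 59.1 and 61.6 FPKM with overlapping groups (log2 difference 0.06, adjusted p = 0.365, and -1.30 after median-of-ratios scaling). Among 20 enzymes of general glycolysis 9 rose and 5 fell, with a median of 0.59 that became 1.11 after quantile normalization (11 higher, 2 lower) and -0.66 after median-of-ratios scaling. Pkm rose from 3.09, 3.00 and 2.69 FPKM to 312, 273 and 292 FPKM, Hk1 from 0.255 to 18.1 FPKM and Aldoa from 57.0 to 336 FPKM, while Aldoc fell from 9.58 to 2.95 FPKM. Ldha was lower at D14 (log2 change -1.30), but -0.30 after quantile normalization.

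Fatty acid oxidation fell in 21 of 24 genes, with a median of -1.87. The peroxisomal thiolase Acaa1b fell from 689 to 9.53 FPKM. Acot1 rose (9.82 to 57.9 FPKM), and Cpt1a, the gate of fatty acids into mitochondria, was called higher at a log2 change of 1.14 with -0.22 after median-of-ratios scaling. In sterol and fatty acid synthesis 4 of 30 genes were higher and 9 lower, with a median of -0.18, of -0.52 after quantile normalization and of -1.53 after median-of-ratios scaling. Scd1, the desaturase, fell from 438 to 72.4 FPKM, while the regulator Srebf2 was higher at 55.0 against 12.3 FPKM, with a difference of 0.75 under median-of-ratios scaling. Both zones of the lobule were affected. Of 19 pericentral genes 12 fell and 5 rose, and of 22 periportal genes 18 fell and 2 rose, with medians of -3.55 and -5.15. Periportal Cdh1 (E-cadherin, a cell junction protein) rose from 16.1, 18.9 and 15.7 FPKM to 104, 90.4 and 97.3 FPKM.

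**Figure D4:**
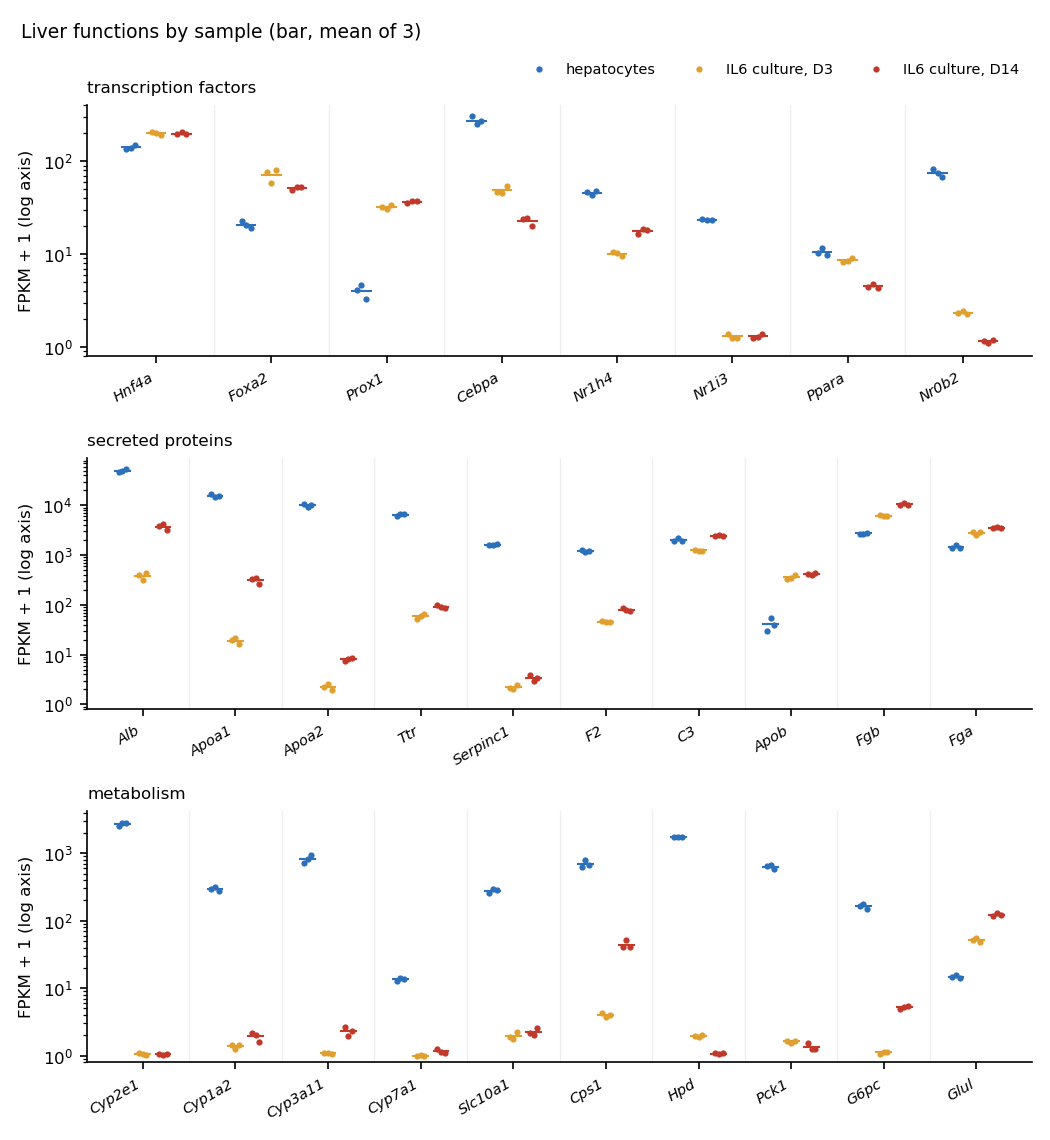
FPKM + 1 on a log axis for genes of liver function, one point per sample, in hepatocytes (blue), IL6 culture at D3 (orange) and at D14 (red), with bars at the mean of 3. Hnf4a stays between 134 and 207 FPKM in all 9 samples, whereas the metabolic genes of the lowest panel, Glul apart, lie far below their hepatocyte level in culture.

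Genes that growth hormone makes male-biased in liver fell in 20 of 20 tested cases, with a median of -6.28. Besides the Mup genes these included Elovl3, a fatty acid elongase listed at 254, 255 and 253 FPKM in hepatocytes and at 0 in all samples at D14, and the steroid enzyme Hsd3b5 (284 to 0.0227 FPKM). Of 20 female-biased genes only 4 passed the filter, and 2 of these fell and 2 rose, among them Cyp39a1 from 2.93 to 20.2 FPKM. Of the 4, 1 passed it only through D14 and 2 only through hepatocytes, so the filter largely set these directions. After quantile normalization 1 was higher and 2 lower. Over all 20 listed the median was -0.0038 as deposited. The growth hormone receptor Ghr was at 105 and 56.3 FPKM (log2 difference -0.88, past 2-fold at -2.25 after median-of-ratios scaling), and its target Igf1 fell from 59.3, 60.4 and 61.7 FPKM to 2.15, 2.38 and 2.02 FPKM. Carriers of IGF diverged, since Igfbp2 fell from 1126 to 0.0874 FPKM, Igfals from 113 to 8.68 FPKM, and Igfbp1 rose from 69.4 to 2231 FPKM.

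Acute phase proteins did not move as a group. Of 32 tested 12 rose and 10 fell, and their median of 0.09 was -1.29 after median-of-ratios scaling. Beside Lcn2, Mt2, a metal-binding protein, rose from 17.3 to 1709 FPKM, and A2m, a protease trap that is scarce in adult mouse liver, from 0.00322, 0.0452 and 0.0155 FPKM to 63.4, 71.9 and 56.3 FPKM. Hp (haptoglobin) was at 2570, 2334 and 2485 FPKM in hepatocytes and at 2575, 2464 and 2231 FPKM at D14, with overlapping groups (log2 difference -0.02, adjusted p = 0.774), and the difference was 1.20 after quantile normalization and -1.41 after median-of-ratios scaling. Saa1 and Orm1, also classical acute phase genes, fell from 85.1 and 1364 FPKM to 6.59 and 89.8 FPKM. Hamp, the iron hormone hepcidin, fell from 1196, 1109 and 1019 FPKM to 0.853, 0.474 and 1.69 FPKM. Saa3, which cells outside hepatocytes also make, was called higher (8.29 to 20.2 FPKM), with -0.08 after median-of-ratios scaling. Saa1, Orm1, Serpina3k and their neighbours are close copies, and reads may be shared among them.

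The promoters of these genes were read for the STAT element TTCNNNGAA, since Stat3 is a factor through which IL6 acts. In the study's blots IL6 also activated AKT strongly and ERK1/2 slightly, which this search does not cover. The element is its own reverse complement, so 1 strand covers both, and the windows were the 250 bases before each RefSeq start (build GRCm38.p6). It was present in 7.02% of all 32851 windows and, as some genes have several, in at least 1 window of 8.13% of 27025 genes. It was found in 7 of the 26 acute phase genes with a window and in 1 of the 26 such genes of the IL6 and STAT3 list. Over all genes tested it was in 6.78% of those higher, 8.40% of those lower and 7.37% of the others. Shown are Fgb and Fga, both called higher, Hamp, which fell, and Socs3, which stayed under 2-fold, to set the same element beside unlike changes, with the element in capitals. The log2 change of Fga was 1.27 and became -0.11 after median-of-ratios scaling.
Fgb, chr3:83049864-83050113, minus strand: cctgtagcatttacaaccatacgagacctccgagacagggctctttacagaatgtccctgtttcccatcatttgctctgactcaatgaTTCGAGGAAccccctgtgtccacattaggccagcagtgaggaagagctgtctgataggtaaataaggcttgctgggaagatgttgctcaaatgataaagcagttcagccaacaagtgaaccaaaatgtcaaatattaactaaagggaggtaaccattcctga
Fga, chr3:83025903-83026152, plus strand: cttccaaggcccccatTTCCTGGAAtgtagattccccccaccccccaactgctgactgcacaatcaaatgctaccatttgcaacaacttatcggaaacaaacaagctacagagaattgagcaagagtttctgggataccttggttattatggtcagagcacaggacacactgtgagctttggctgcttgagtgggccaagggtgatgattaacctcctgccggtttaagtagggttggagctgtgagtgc
Hamp, chr7:30944030-30944279, minus strand: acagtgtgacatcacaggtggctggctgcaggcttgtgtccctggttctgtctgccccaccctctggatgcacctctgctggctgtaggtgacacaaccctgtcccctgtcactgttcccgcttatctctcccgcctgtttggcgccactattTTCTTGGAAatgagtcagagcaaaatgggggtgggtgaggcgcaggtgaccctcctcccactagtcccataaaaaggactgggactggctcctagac
Socs3, chr11:117969367-117969616, minus strand: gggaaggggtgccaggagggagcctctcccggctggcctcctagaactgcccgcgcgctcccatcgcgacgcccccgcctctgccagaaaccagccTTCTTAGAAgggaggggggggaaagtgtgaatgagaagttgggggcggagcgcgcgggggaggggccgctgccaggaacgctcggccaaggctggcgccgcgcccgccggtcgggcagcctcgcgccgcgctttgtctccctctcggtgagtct

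In these windows the element began 162 bases before the start in Fgb, 234 in Fga, 97 in Hamp and 154 in Socs3. The other acute phase genes with it were Steap4 (log2 change 1.55, and 0.21 after median-of-ratios scaling), Itih4 (-1.62, and -0.66 after quantile normalization), Apcs, whose difference of -0.57 was under 2-fold and became 0.17 after quantile normalization and -1.94 after median-of-ratios scaling, and Serpina3g, which was not tested. As deposited, genes with the element thus lay on both sides of the comparison. The calls of Fgb, Fga and Steap4 as higher were lost after median-of-ratios scaling, while Hamp stayed lower. A match is a description of these letters and not of binding.

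Members of the IL6 and STAT3 route rose in 20 of 31 cases and fell in 4, with a median of 1.76 and of 0.44 after median-of-ratios scaling. Il6ra was at 3.53, 3.72 and 2.88 FPKM in hepatocytes and at 11.03, 11.24 and 10.34 FPKM at D14. Il6st and Stat3 went from 8.85 and 25.4 FPKM to 44.3 and 94.6 FPKM. The calls of these 3 were lost in a scaling, with log2 differences as low as 0.15, 0.90 and 0.50. Osmr, the receptor chain for oncostatin M, rose under all scalings, from 0.0272, 0.0106 and 0.0655 FPKM to 46.4, 51.9 and 54.5 FPKM, and so did Il4ra (11.4 to 144 FPKM). Lifr, the receptor chain for LIF, moved the other way, from 101, 107 and 101 FPKM to 6.04, 6.18 and 5.52 FPKM. Socs3, the feedback inhibitor, was at 67.0, 62.1 and 61.0 FPKM against 124, 124 and 114 FPKM, a log2 difference of 0.92 that missed the 2-fold limit and was 1.36 after quantile normalization and -0.45 after median-of-ratios scaling.

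For EGF and HGF signaling 18 of 23 tested genes rose and 1 fell, with a median of 2.82, and 14 were higher and 2 lower after quantile normalization with a median of 1.56. Over all 27 listed genes the median was 1.83 as deposited. Egfr was at 114 and 203 FPKM, a log2 difference of 0.83 that was 1.51 after quantile normalization and -0.54 after median-of-ratios scaling. Met was called higher at 18.2 against 4.09 FPKM, with 0.69 after median-of-ratios scaling. Among ligands of Egfr, Tgfa, Areg and Hbegf rose. Tgfa was at 3.29, 3.75 and 2.54 FPKM in hepatocytes and at 148, 157 and 140 FPKM at D14. Areg and Hbegf went from 0.0146 and 0.161 FPKM to 10.7 and 10.8 FPKM. Dusp4, a phosphatase induced by ERK, rose from 0.633 to 52.4 FPKM. Hgfac, which activates HGF, was the gene that fell (144 to 41.0 FPKM).

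Biliary and progenitor markers rose in 22 of 24 tested cases, of 34 in the list, with a median of 3.11. Sox9 was at 1.396, 1.653 and 0.834 FPKM in hepatocytes and at 62.6, 59.0 and 60.1 FPKM at D14 (log2 change 4.76, SE 0.12). Krt19 went from 0.0512, 0 and 0.0308 FPKM to 54.1, 46.6 and 45.3 FPKM, and Krt7, listed at 0 in hepatocytes, reached 7.57, 6.48 and 8.48 FPKM. Cd24a and the RNA-binding protein Bicc1 rose from 0.377 and 0.02 FPKM to 160 and 129 FPKM. Epcam, which marks bile duct cells, stayed below the filter at 0.309, 0.545 and 0.49 FPKM at D14, and the water channel Aqp1 fell from 9.46 to 0.0738 FPKM.

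Fetal genes rose with them. Of 19 listed, 11 were tested, 10 rose and 1 fell, with a median of 5.16. As 8 of the 11 were under 1 FPKM in all hepatocyte samples, they could enter only through D14, and over all 18 members in the table the median was 1.32. Afp was at 0.219, 0.192 and 0.213 FPKM in hepatocytes and at 258, 268 and 251 FPKM at D14, 1248-fold higher. Igf2, the fetal growth factor, went from 0, 0.0148 and 0.0407 FPKM to 34.7, 37.7 and 41.9 FPKM. Gpc3 (a proteoglycan of fetal liver) and Hmga2 (a chromatin protein of growing tissues) were listed at 0 in hepatocytes and averaged 49.8 and 105 FPKM at D14. Tff3 was the gene that fell, from 5.44 to 1.08 FPKM.

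**Figure D5:**
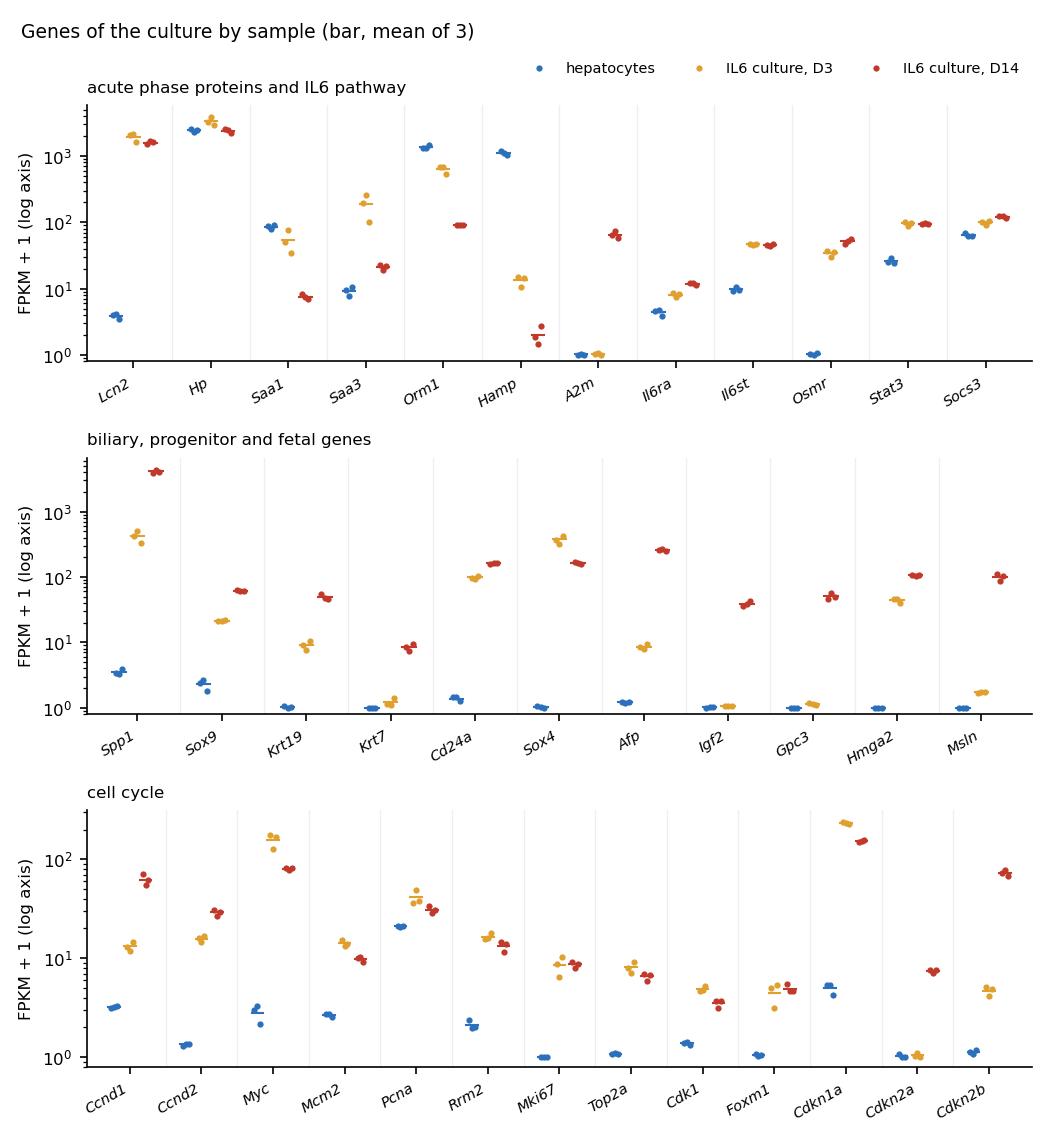
FPKM + 1 on a log axis for acute phase and IL6 genes, biliary, progenitor and fetal genes, and cell cycle genes, one point per sample, in hepatocytes (blue), IL6 culture at D3 (orange) and at D14 (red), with bars at the mean of 3. Afp, Igf2, Gpc3 and Msln reach their level between D3 and D14, whereas Mki67 and Top2a differ by less than 2-fold between both times.

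Counts of cell cycle genes called higher depended on the scaling, against 54.1% of all genes as deposited and 26.4% after quantile normalization, and the phases were not compared by a test. Of 16 G1 cyclins and kinases 13 rose and 1 fell, with a median of 1.89, and after quantile normalization 6 were higher and 2 lower with a median of 0.56. Of the 16, 8 could be tested only through D14, and over all 19 listed the median was 1.597. Ccnd1 was at 2.16, 2.21 and 2.33 FPKM in hepatocytes and at 69.5, 53.5 and 60.5 FPKM at D14 (log2 change 4.26, SE 0.09). Ccnd2 and Myc went from 0.345 and 1.81 FPKM to 28.1 and 79.4 FPKM. For DNA replication 22 of 38 genes rose, a share close to that of all genes, and 2 fell with a median of 1.34, but after quantile normalization 4 were higher, 11 lower and the median was -0.03. Rrm2, which supplies nucleotides, rose from 1.12 to 12.3 FPKM, whereas Pcna, the replication clamp, was at 20.4, 19.8 and 20.3 FPKM against 32.6, 27.7 and 29.6 FPKM, a log2 difference of 0.55 that was 0.02 after quantile normalization and -0.78 after median-of-ratios scaling. Mcm10 and Tk1 fell, from 28.2 and 26.5 FPKM to 1.28 and 5.25 FPKM.

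For mitosis 32 of 36 genes rose and 2 fell, with a median of 1.74, and after quantile normalization 7 were higher and 4 lower with a median of 0.48. Mki67 was at 0.00155, 0.00678 and 0.00745 FPKM in hepatocytes and at 8.21, 6.98 and 7.80 FPKM at D14. Top2a and Foxm1 went from 0.075 and 0.0588 FPKM to 5.55 and 3.92 FPKM, the change of Foxm1 being 0.94 after quantile normalization. Cdk1 was called higher at 2.50 against 0.379 FPKM, with a difference of -0.02 in quantile-normalized values. These levels were low beside those of Ccnd1 or Myc. Of the other transcription factors the study singles out, Elf3 was at 0.209 and 2.38 FPKM (log2 change 1.48, and 0.15 after quantile normalization), and Barx2 and Mxd3 stayed under the filter, Barx2 being listed at 0 in hepatocytes and at a mean of 0.577 FPKM at D14, and Mxd3 at 0.206 and 0.836 FPKM.

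Inhibitors of the cycle and targets of p53 rose at the same time, 19 of 21 with none lower and a median of 2.96. After quantile normalization 15 were higher and 2 lower, with a median of 2.22. Of the 21, 5 could be tested only through D14, and over all 23 listed the median was 2.87. Cdkn1a (p21) was at 4.31, 4.39 and 3.23 FPKM in hepatocytes and at 148, 152 and 155 FPKM at D14. Cdkn2b (p15) went from 0.127, 0.0741 and 0.178 FPKM to 71.7, 76.6 and 66.2 FPKM, and Cdkn2a from 0.0662, 0 and 0 FPKM to 6.67, 6.10 and 6.62 FPKM. Mdm2, which holds p53 down, and the death gene Pmaip1 (Noxa) rose from 3.41 and 0.106 FPKM to 62.4 and 82.8 FPKM. The bulk values do not show whether inhibitors and cycle genes rose in the same cells.

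The cytoskeleton and its membrane linkers rose in 33 of 37 genes and fell in none, with a median of 3.53 and of 3.62 after quantile normalization. The keratins of hepatocytes, Krt8 and Krt18, were at 246 and 201 FPKM and at 1110 and 1548 FPKM at D14, the difference of Krt8 being 0.79 under median-of-ratios scaling. Actb rose from 222, 218 and 176 FPKM to 1269, 1224 and 1194 FPKM, and the actin-binding Tmsb10 from 5.90 to 595 FPKM. Matrix and adhesion genes rose in 25 of 30 tested cases, with none lower. Fn1 (fibronectin) was at 60.9, 90.7 and 41.4 FPKM in hepatocytes and at 5049, 5065 and 5053 FPKM at D14. Timp1, an inhibitor of matrix proteases, was listed at 0 in hepatocytes and reached 131, 134 and 116 FPKM, and Cd44, a hyaluronan receptor, rose from 0.316 to 128 FPKM.

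Targets of YAP and TEAD, the factors that answer to spreading and tension of cells, rose in 25 of 25 tested cases, with a median of 3.44. Ankrd1 was listed at 0 in hepatocytes and averaged 108 FPKM at D14, and Ctgf and Cyr61 went from 0.026 and 6.38 FPKM to 66.0 and 91.8 FPKM. Both had been higher at D3, at 408 and 420 FPKM. In the list of Notch and Wnt regulators, of which 12 of 28 were tested, 10 rose (6 after quantile normalization), among them Notch1 (0.465 to 22.5 FPKM), Notch2 (1.69 to 38.1 FPKM) and the ligand Jag1 (0.142 to 8.27 FPKM). Axin2, a target of Wnt, was under the filter at 0.381 and 0.159 FPKM.

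Stress responses were read as separate lists, with no test between them. Genes that amino acid shortage induces through Atf4 rose in 20 of 24 cases with a median of 2.76. Of the 24, 10 could be tested only through D14, and over all 25 listed the median was 2.70. Among those that rose were Asns (1.73 to 49.5 FPKM), Trib3 (1.68 to 29.5 FPKM) and Phgdh (0.196 to 49.7 FPKM). Of 20 genes of protein folding in the endoplasmic reticulum 6 rose and 1 fell, and the median of 0.48 was 0.74 after quantile normalization and -0.88 after median-of-ratios scaling, with Hspa5 at 262 and 478 FPKM (log2 difference 0.86, with 1.95 after quantile normalization and -0.52 after median-of-ratios scaling). Oxidant response genes fell in 12 of 25 cases and rose in 7. Hmox1 rose from 5.27, 5.39 and 5.45 FPKM to 66.7, 57.1 and 60.9 FPKM and the secreted peroxidase Gpx3 from 0.123 to 160 FPKM, while Cat (catalase) fell from 1164 to 191 FPKM and the glutathione transferase Gsta3 from 1307 to 51.1 FPKM.

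Interferon response and class I antigen genes fell in 14 of 22 cases and rose in 2, with a median of -1.33. After quantile normalization 16 were lower and 0 higher, with a median of -1.95. Of the 22, 2 passed the filter only through D14 and 3 only through hepatocytes. Irf7 and Isg15 fell from 91.7 and 37.7 FPKM to 2.75 and 2.27 FPKM, and H2-K1 from 1412, 1300 and 1331 FPKM to 243, 258 and 233 FPKM. B2m was called lower (2590 to 969 FPKM), with -0.06 after quantile normalization. Among 18 chemokines and mediators 9 rose and 6 fell, against 6 higher and 7 lower after quantile normalization. Of the 18, 9 passed the filter only through D14 and 5 only through hepatocytes, so the filter largely set these directions. Over all 25 listed the median was 0.49, against 1.01 for those tested. Ccl2, which draws monocytes, rose from 0.0693 to 48.5 FPKM and Csf1 from 0.759 to 19.1 FPKM, while Cxcl12 and Ccl9 fell from 56.3 and 41.7 FPKM to 4.49 and 0.318 FPKM. Of 17 clock genes 9 rose and 1 fell, with a median of 1.04, close to that of all genes, and after quantile normalization 4 were higher and 4 lower with a median of -0.12. None of 32 ribosomal protein genes rose and 4 fell, and their median of -0.24 became 0.70 after quantile normalization and -1.61 after median-of-ratios scaling, so no direction can be given for them.

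Between D3 and D14 of the culture far fewer genes changed. In a fit of all 33 samples of the table, 629 of the same 11298 genes were higher at D14 than at D3 (5.57%) and 562 lower (4.97%), with a median difference of -0.17. The lower genes numbered 322 after median-of-ratios scaling and 894 with a pseudocount of 0.1, the higher ones 693 and 851. This comparison shares its D14 samples with the first, so only its own values are given. Carrier proteins of plasma rose in 19 of 30 cases and fell in 1, with a median of 1.71. Alb went from 398, 308 and 436 FPKM at D3 to 3828, 4141 and 3244 FPKM (log2 change 3.30, SE 0.12, adjusted p = 2.22e-20), Apoa1 from 18.1 to 309 FPKM and Apoa2 from 1.24 to 6.99 FPKM. Cps1 and G6pc rose from 2.97 and 0.116 FPKM to 43.0 and 4.17 FPKM, whereas Otc and Pck1 had log2 differences of -0.13 and -0.26. Sterol and fatty acid synthesis rose in 17 of 30 genes and fell in none, with Fasn at 20.1 and 55.5 FPKM and Sqle at 13.3 and 45.0 FPKM.

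Other liver genes fell further in this interval. Cebpa went from a mean of 47.7 to 21.8 FPKM, Nr0b2 from 1.34 to 0.153 FPKM, Fbp1, an enzyme of gluconeogenesis, from 14.7 to 3.26 FPKM and Igf1 from 17.9 to 2.18 FPKM. The calls of Cebpa and Nr0b2 were near the limit, at log2 changes of -1.10 and -1.02. Cebpa was at -0.92 after median-of-ratios scaling, and Nr0b2 was at -0.98 without the second D3 sample, -0.99 without the second D14 sample and -0.62 after quantile normalization. Hnf4a stayed at 199 and 197 FPKM (log2 difference -0.01, adjusted p = 0.844). Acute phase proteins split, 11 rising and 10 falling. A2m was at 0.0308, 0.0549 and 0.011 FPKM at D3 and rose to 63.9 FPKM, while Saa3, Orm1 and Hamp fell from 185, 632 and 12.4 FPKM to 20.2, 89.8 and 1.01 FPKM.

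Of 24 progenitor markers 12 rose and 3 fell, and of 11 fetal genes 6 rose and none fell. The filter used hepatocytes and D14 only, so a gene expressed only at D3 could not enter. Of these members 19 of the 24 and 8 of the 11 had passed it only through D14, which bears on the counts. Spp1 was at 418, 502 and 323 FPKM at D3 (log2 change 3.33 to D14), Krt19 at 8.06, 6.77 and 9.55 FPKM (2.45) and Afp at 7.34, 6.95 and 8.28 FPKM (4.93). Igf2 and Gpc3 were at 0.069 and 0.142 FPKM at D3, nearly as low as in hepatocytes. Msln likewise averaged 0.714 FPKM at D3 and 99.3 FPKM at D14. Sox4 fell, from 373 to 162 FPKM. Of 36 mitosis genes none rose and 1 fell, and of 38 replication genes none rose and 3 fell, with Mki67 at 7.51 and 7.66 FPKM. Ccnd1, Cdkn2a and Cdkn2b rose, from 12.2, 0.0463 and 3.72 FPKM to 61.2, 6.47 and 71.5 FPKM.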

How the data were processed

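RNA-seq (poly(A) mRNA, Illumina) of 6 samples was compared, with 3 further samples at D3, out of 33 in the table and 60 in the series. The authors deposited 1 FPKM value per gene symbol and sample. The submitters' processing notes name TopHat 1.4.1, Cufflinks 1.3.0 and mm10, and the unit was taken from the values. Strand use in counting is not given in the sources used here, so overlapping antisense genes cannot be told apart. Of 19357 lines, 2 repeated symbols were averaged, and 27 symbols turned into dates were kept as they stood. Whole reads were recovered from the steps of the values for 18825 of 18828 genes with reads (within 0.001 of a whole number). Replicate pairs differed by more than counting noise (chi-square per gene 9.87 to 60.1), so none was taken for 1 library deposited in duplicate, which does not make these technical repeats independent.

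Values were tested as log2(FPKM + 1) by limma 3.58.1 in R 4.3.3 (moderated variances following the mean level, Benjamini-Hochberg adjustment over all 11298 genes), a scale that understates the change of low genes. Genes past 2-fold whose adjusted p fell below 0.05 are called changed. D14 against D3 was fitted over all 33 samples in 11 groups. On simulated data 66 of 67 genes changed by 1.5 on the log2 scale, 67 of 67 changed by 2 and 66 of 66 changed by 3 were called. Among all 11298 genes there were 0 wrong calls. Only 200 genes were changed there, without a shift over all genes and with the spread of these repeats. The simulation thus does not cover errors that come from the scaling or from differences between mice.

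The members and the gene lists were chosen with earlier results on these data known. Named are the 12 largest rises and falls, key genes of each list, and the 3 largest rises and falls of each list. Tried as alternatives were quantile and median-of-ratios scaling, filters of 5 FPKM or none, 0.1 as pseudocount, 1 fit of all 33 samples, a replicate block, no variance trend, other fold thresholds, voom on recovered reads, and leaving out each sample. Promoters are RefSeq's (GRCm38.p6). Python 3.11.15, numpy 2.4.6, pandas 2.3.3 and matplotlib 3.10.9 were used. A few genes of the lists are counted but not reported here by name. The other tables of the series were not used here, and columns of no sample numbered 0.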

Additional observations from a re-analysis of the deposited data

How the results depend on the processing

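The count of changed genes against hepatocytes was 7710 and lay between 7651 and 7769 when each sample was left out (6072 to 6159 higher, 1572 to 1610 lower). Scaling moved the split between directions, with 2988 higher and 2664 lower after quantile normalization and 3060 and 3302 after median-of-ratios scaling, against 6117 and 1593. A 4-fold threshold gave 3797 genes (2973 higher, 824 lower), and no fold threshold gave 10658 (8058 higher, 2600 lower), both by construction. Voom on recovered reads called 8285 of 11296 genes. Same-numbered samples of the groups did not deviate together (r = 0.151, -0.0932 and 0.0602), so the numbers were not taken as pairs, and a replicate block left the count at 7710. Against D3 the count of 1191 (1191 with the block) lay between 1181 and 1232 with each sample left out (619 to 639 higher, 556 to 601 lower), and the 562 lower genes became 894 with a pseudocount of 0.1 and 322 after median-of-ratios scaling. Of 174 named and tested genes, 131 kept direction and call against hepatocytes under every alternative run, and 11 changed sign with a call on either side. These were C3 (-1.11), Cpt1a (-0.22), Fasn (-0.0868), Fga (-0.11), Foxa2 (-0.0199), Pklr (-1.30), Saa3 (-0.0804) and Trf (-1.03) after median-of-ratios scaling, and Cd68 (-0.22), Cdk1 (-0.0244) and Hp (1.20) after quantile normalization. Beyond the scaling itself, the cause of these shifts was not tested. The repeats are technical, so the spread between mice is unknown, and some genes under 1 FPKM carry few reads.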
